A study of Mus musculus with 48 samples.

Results

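The comparison described here is that of liver RNA between mice given a high and a low protein to carbohydrate ratio in a high-fat diet for 4 weeks. Its members were the 24 of 48 arrays labelled with the 4-wk time point, 12 for each diet, with 1 array per mouse, and all 45037 probe sets that are not array controls were compared. All mice were male C57BL/6J, without any engineered allele. They had been made obese by 10 weeks on the diet low in protein (L-P/C-HF) and were then kept on it or switched to the high protein diet (H-P/C-HF), in which protein took the place of part of the carbohydrate while the share of fat stayed the same. The mice had been selected for poor glucose tolerance, per the methods, and the labels give no age. Of the abbreviated diet labels, the one with protein in its name was read as H-P/C-HF. The other 24 mice were killed after 2 days on the same diets (2-d) and are used here only to place the 4-wk values, with 1 of them (array B25) left out as in the methods. They were younger and were killed on other days, so that feeding duration, age and day of death cannot be told apart.

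The liver takes up dietary amino acids first, strips their nitrogen into urea and passes their carbon skeletons on to glucose and fat. It turns sugars into glycolytic intermediates and lipid, and it disposes of cholesterol as bile acids, whose composition is set by sterol hydroxylases and whose synthesis is restrained by the nuclear receptor pair FXR and SHP. Hepatocytes make up most of liver RNA, and the tissue also holds resident macrophages (Kupffer cells), endothelium, stellate cells and lymphocytes. In whole tissue, fewer cells of a type and less RNA per cell cannot be told apart. Levels are given as log2 values after RMA, an array summary in which a difference of 1 is a doubling, and a level is compared only between mice for the same probe set.

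The livers of the 2 diets differed little after 4 weeks. With limma across the 4 groups, 0 of 45037 probe sets (0%) passed a Benjamini-Hochberg adjusted p of 0.05, and the smallest adjusted p was 0.228. At an unadjusted p under 0.05, 1243 probe sets were counted (2.76%), of which 431 (0.957%) lay higher and 812 (1.8%) lay lower in H-P/C-HF. This split depended on the scaling: 34.7% of these probe sets lay higher with the values as deposited and 52.6% when each array was centred on its median. At an unadjusted limma p under 0.001, 8 probe sets (0.0178%) lay higher and 19 (0.0422%) lower. The methods use the same threshold on another p, from an ANOVA with Global Error Assessment, which was not run here. The paper reports more transcripts by that test, and the counts here are not a repeat of it. The totals at 0.05 and at 0.001 were each a smaller share of probe sets than the threshold itself. About the threshold's share would be counted if no probe set differed, so these totals alone do not show differences. The spread of differences was narrow, with the 1st percentile at -0.20, the median at -0.01 and the 99th percentile at 0.18 on the log2 scale, and 33 probe sets differed by more than 0.5. For the 18193 genes taken by their brightest probe set, 151 (0.83%) lay higher and 393 (2.16%) lower by the same unadjusted threshold, and 40.1% of all genes lay above 0 and 59.7% below with a median of -0.02. These shares are the background for each gene group below. The groups were chosen with earlier results of these data known, so their counts may follow in part from that choice. Since no single gene passed the adjusted test, genes are said to lie higher or lower, and "rose" or "fell" is kept for changes between 2-d and 4-wk that passed it.

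**Figure D1:**
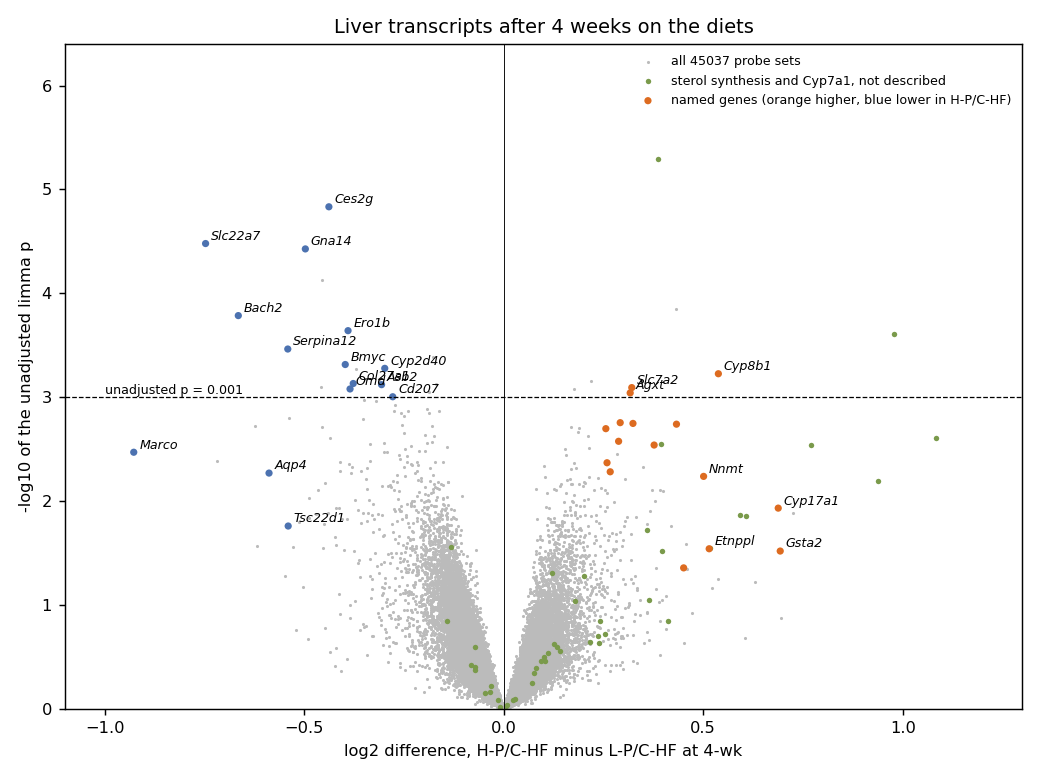
Log2 difference between the diets at 4-wk (x axis) against the -log10 of the unadjusted limma p (y axis) for each probe set, with the named genes in orange where higher and blue where lower in H-P/C-HF. Most points lie within 0.2 of 0, and 19 probe sets lie lower and 8 higher above the dashed line at an unadjusted p of 0.001.

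The arrays of both diets were alike in overall signal and RNA quality. Array medians ran from 6.75 to 6.91 in L-P/C-HF and from 6.75 to 6.85 in H-P/C-HF, and the 3' minus 5' signal of the Gapdh and beta-actin controls averaged 0.24 ± 0.07 (SD, n = 12) in L-P/C-HF and 0.27 ± 0.11 in H-P/C-HF, against 0.48 ± 0.19 and 0.48 ± 0.13 at 2-d. RNA quality thus differed between the durations, and its part in the changes over time was not tested. Array A24 of the L-P/C-HF group had the highest median. Its median correlation with the other arrays of the series was the lowest of its group (0.98). Array A15 of the same group carried skeletal muscle transcripts. Its Acta1 level (skeletal muscle actin) was 9.44 against a group median of 6.61, and 6 of the 9 muscle markers were highest in it. A15 was also the highest of its group for 7 of the 15 genes named below as lower. Among the genes named below as higher, A24 was the lowest of its group for Agxt, Aldh1b1, Cep83, Fads1, Ivd, Pir and Rdh11. Without A24 these differed by 0.264 (Agxt), 0.399 (Aldh1b1), 0.209 (Cep83), 0.269 (Fads1), 0.215 (Ivd), 0.337 (Pir) and 0.335 (Rdh11), each less than the value given below.

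Among genes lower in H-P/C-HF, the smallest p belonged to Ces2g, a carboxylesterase that hydrolyses ester and amide bonds in lipids and drugs. Its level ran from 8.55 through a median of 8.92 to 9.30 in L-P/C-HF and from 7.94 through 8.42 to 8.83 in H-P/C-HF. All 12 H-P/C-HF mice lay under the median of L-P/C-HF and 7 lay below every L-P/C-HF mouse, though the groups overlapped. The difference was -0.44 ± 0.09 (SE), or 1.36-fold lower, with an unadjusted limma p of 1.47e-05 and an adjusted p of 0.330. At 2-d it was -0.22 (unadjusted limma p = 0.0246). Here and below, unless another setting is named, limma SE and p values draw on the spread within all 4 groups, the 2-d mice included.

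Slc22a7, the organic anion transporter OAT2 of the hepatocyte's sinusoidal membrane, showed the second smallest p. Its level ran from 9.99 through 10.72 to 12.03 in L-P/C-HF, where the highest value was that of A15, and from 9.25 through 10.00 to 10.76 in H-P/C-HF, with 11 of 12 H-P/C-HF mice under the median of L-P/C-HF. The difference was -0.75 ± 0.16, or 1.68-fold lower (limma adjusted p = 0.421), and -0.63 without A15. The transcript fell between 2-d and 4-wk in both diets, by 0.68 in L-P/C-HF (limma adjusted p = 0.00511) and by 1.33 in H-P/C-HF (limma adjusted p = 2.55e-07). The diet difference was -0.09 at 2-d, and the difference between the 2 diet effects had an unadjusted p of 0.00695 and did not pass adjustment.

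Gna14, a G protein alpha subunit of the Gq class, ran from 7.79 through 8.22 to 9.19 in L-P/C-HF and from 7.33 through 7.77 to 8.08 in H-P/C-HF. All 12 H-P/C-HF mice lay under the median of L-P/C-HF. The difference was -0.50 ± 0.11 (limma adjusted p = 0.421), -0.41 without A15 and -0.07 at 2-d, and the other 2 probe sets of the gene also lay lower with an unadjusted p under 0.05. Bach2, a transcriptional repressor best known from lymphocytes, differed by -0.66 ± 0.16 at a low level (7.12 ± 0.47 and 6.46 ± 0.49), and it fell between 2-d and 4-wk in H-P/C-HF by 0.65 (limma adjusted p = 0.00831).

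Serpina12 encodes vaspin, a secreted serine protease inhibitor. It ran from 11.68 through 12.13 to 12.77 in L-P/C-HF and from 11.25 through 11.67 to 12.09 in H-P/C-HF, and all 12 H-P/C-HF mice again lay under the median of L-P/C-HF. The difference was -0.54 ± 0.14 (unadjusted limma p = 0.000344), -0.49 without A15 and -0.39 at 2-d. Differences of like size at both durations were also seen for Ero1b, an oxidase that drives disulphide formation in the endoplasmic reticulum (-0.39 at 4-wk and -0.38 at 2-d, with 1 of its 2 other probe sets in the opposite direction), for Col27a1, a fibrillar collagen (-0.38 and -0.41), and for the cytochrome P450 gene Cyp2d40 (-0.30 and -0.32).

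The remaining genes named as lower were Bmyc (-0.40), Omd, which encodes the matrix proteoglycan osteomodulin (-0.39), Asb2, a substrate receptor of a ubiquitin ligase (-0.31), Cd207, the lectin langerin (-0.28), Marco (-0.93), the water channel Aqp4 (-0.59) and Tsc22d1 (-0.54, with 1 of its 6 other probe sets in the opposite direction). Tsc22d1 was -0.40 without A15 (unadjusted limma p = 0.0564). Over the 15 genes, between 10 and 12 H-P/C-HF mice lay under the median of L-P/C-HF, but in none were the 2 groups separate. These genes, like those named as higher and most members named from the gene lists below, were chosen by this same contrast. Their counts of mice over or under the median follow largely from that choice.

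**Figure D2:**
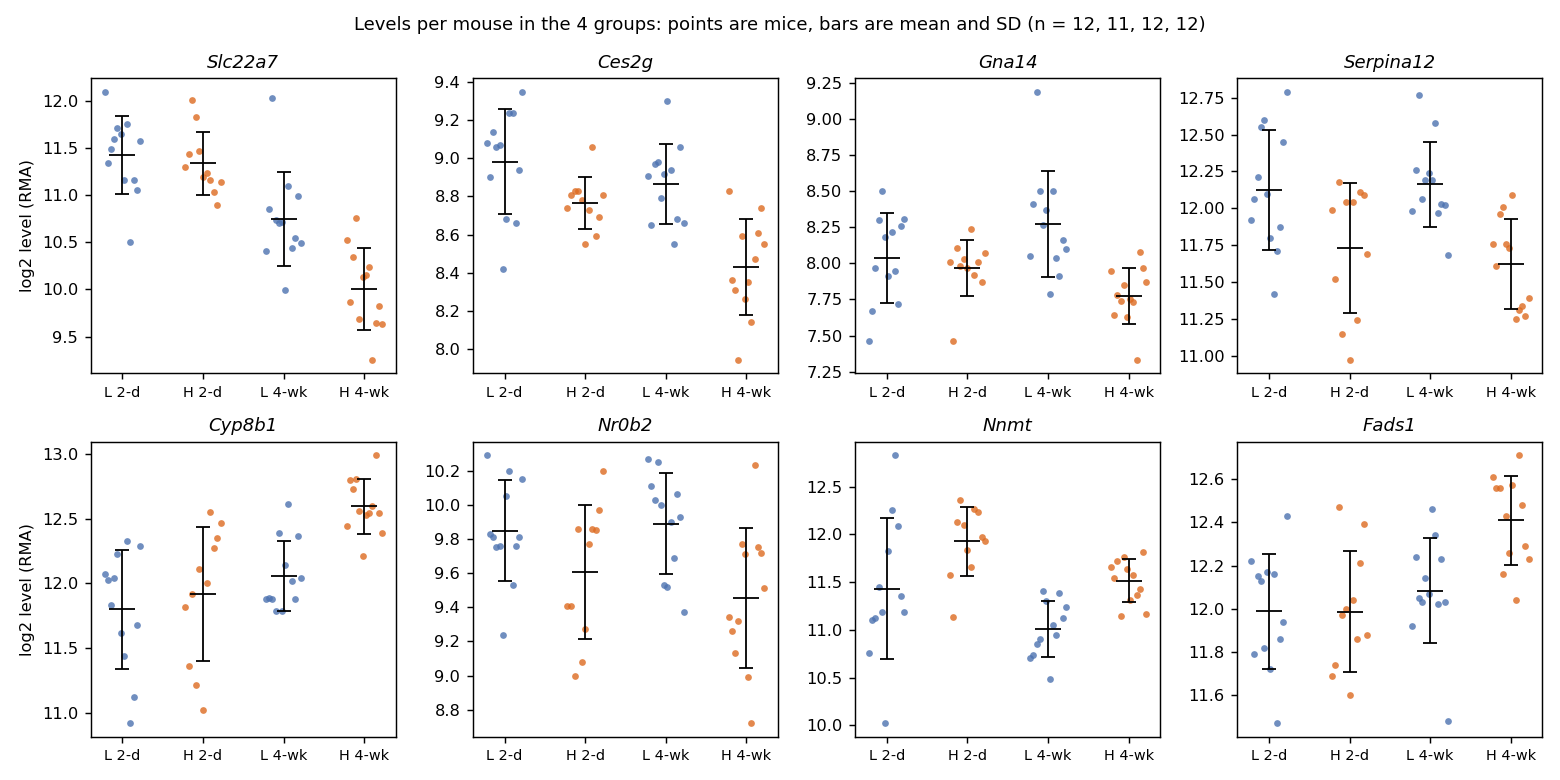
Log2 levels of 8 genes in every mouse (points) of the 4 groups, L for L-P/C-HF and H for H-P/C-HF, with mean and SD as bars. In the 4-wk columns Slc22a7, Ces2g, Gna14, Serpina12 and Nr0b2 lay lower and Cyp8b1, Nnmt and Fads1 higher in H-P/C-HF, with overlap in each gene.

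Bile acid genes other than Cyp7a1 differed at a few points. Cyp8b1, the sterol 12-alpha-hydroxylase that commits bile acid precursors to cholic acid, had the smallest p among genes higher in H-P/C-HF once sterol synthesis, Cyp7a1 and probe sets under the median level were set aside. It ran from 11.79 through 11.96 to 12.61 in L-P/C-HF and from 12.21 through 12.55 to 12.99 in H-P/C-HF, with all 12 H-P/C-HF mice over the median of L-P/C-HF. The difference was 0.54 ± 0.15, or 1.45-fold higher (unadjusted limma p = 0.000595, adjusted p = 0.999), and 0.12 at 2-d. The SD of Cyp8b1 was 0.27 and 0.21 at 4-wk, with L-P/C-HF given first, and 0.46 and 0.52 at 2-d. This wider spread at 2-d enters the SE and p at 4-wk. Over the alternative settings, by limma or one-way ANOVA, its lowest adjusted p was 0.0741. Between 2-d and 4-wk Cyp8b1 rose in H-P/C-HF by 0.68 (limma adjusted p = 0.00218), and in L-P/C-HF the change was 0.26 (limma adjusted p = 0.389), while the difference between these changes had an unadjusted p of 0.0503. Of the 14 measured genes of bile acid synthesis besides Cyp7a1, 6 lay higher and 8 lower with a median of -0.01, and Cyp8b1 alone had an unadjusted p under 0.05. Without A24, 10 of the 14 lay lower with a median of -0.03, and 2 of these had such a p. Cyp2c70, which forms the muricholic acids of rodents, was at -0.17 (unadjusted limma p = 0.0541), Amacr, the racemase of side chain shortening, at -0.11, and Cyp39a1, an oxysterol hydroxylase, at 0.30.

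Nr0b2 encodes SHP, the receptor without a DNA binding domain that represses bile acid synthesis genes. It ran from 9.37 through 9.97 to 10.27 in L-P/C-HF and from 8.72 through 9.43 to 10.23 in H-P/C-HF, with 11 of 12 H-P/C-HF mice under the median of L-P/C-HF. The difference was -0.43 ± 0.14 (unadjusted limma p = 0.0025) and -0.24 at 2-d. Among the 14 receptors and factors of this list, 9 lay higher and 5 lower with a median of 0.04 (0.02 without A24), and 2 had an unadjusted p under 0.05, both lower. The other was Nr1i2 (PXR, a sensor of xenobiotics) at -0.22. Onecut1 (HNF6) was at 0.54 with wide spread (8.27 ± 0.63 and 8.80 ± 0.68, unadjusted limma p = 0.0561), and Fgfr4, the receptor for the intestinal hormone FGF15, was at 0.16.

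The sterol exporters lay lower. Abcg5 and Abcg8 form a heterodimer that pumps cholesterol into bile. Abcg5 ran from 10.73 through 11.31 to 11.57 in L-P/C-HF and from 10.59 through 10.94 to 11.16 in H-P/C-HF, and Abcg8 from 10.25 through 10.67 to 10.80 and from 10.16 through 10.45 to 10.56. For both genes all 12 H-P/C-HF mice lay under the median of L-P/C-HF, with overlap. The differences were -0.36 ± 0.12 (unadjusted limma p = 0.00511) and -0.23 ± 0.10 (unadjusted limma p = 0.0269), and at 2-d they were 0.05 and 0.04. Slc51b, a subunit of the basolateral bile acid exporter, was at -0.20 (unadjusted limma p = 0.0206), and the uptake carrier Slco1a1 at -0.24 (unadjusted limma p = 0.0745). Over the 15 measured transporters, 5 lay higher and 10 lower, 3 of them with an unadjusted p under 0.05, and the median was -0.03 (-0.05 without A15).

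Amino acid genes lay on balance higher in H-P/C-HF. Of 35 measured genes of amino acid catabolism, 26 lay higher and 9 lower at 4-wk with a median of 0.05, and 7 had an unadjusted p under 0.05, all higher. With array weights, 19 lay higher and 16 lower with a median of 0.03. At 2-d the counts were 32 higher and 3 lower with a median of 0.18, and 21 had an unadjusted p under 0.05, all higher, where 2.04% of all genes lay higher and 1.62% lower by that threshold. Agxt, which transfers the amino group of alanine to glyoxylate, ran from 11.29 through 11.90 to 12.19 in L-P/C-HF and from 11.86 through 12.15 to 12.57 in H-P/C-HF, with 11 of 12 over the median of L-P/C-HF. The difference was 0.32 ± 0.09 at 4-wk (unadjusted limma p = 0.00091) and 0.43 at 2-d.

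Oat, the ornithine aminotransferase, differed by 0.29 ± 0.09 at 4-wk and 0.44 at 2-d. The transsulphuration enzymes that make cysteine from homocysteine lay higher, Cbs by 0.20 (11.50 ± 0.18 and 11.70 ± 0.16) and Cth by 0.25 (12.10 ± 0.19 and 12.35 ± 0.27). The aspartate aminotransferase Got1 was at 0.36, the lysine degrading enzyme Aass at 0.17 and the tyrosine pathway enzyme Hgd at 0.13. Other enzymes came from the ranking of all genes: Ivd, of leucine breakdown, at 0.27, and Etnppl, a phosphoethanolamine lyase, at 0.52 (unadjusted limma p = 0.0288), which was 0.38 without A15 (unadjusted limma p = 0.0862).

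Of the 8 urea cycle genes, 7 lay higher with a median of 0.06 (0.04 without A24). Asl, the argininosuccinate lyase, was at 12.30 ± 0.17 in L-P/C-HF and 12.49 ± 0.14 in H-P/C-HF, with all 12 H-P/C-HF mice over the median of L-P/C-HF and a difference of 0.20 ± 0.10 (unadjusted limma p = 0.0456). Asl alone of the 8 had an unadjusted p under 0.05, and with limma 0 of the 8 had one without A24, without A15 or with B25 included. Of 15 amino acid transporters, 11 lay higher and 4 lower with a median of 0.07, and the 1 with an unadjusted p under 0.05 was the glycine transporter Slc6a9, at -0.20. With limma on the 24 arrays of 4-wk alone, 4 transporters lay higher and 1 lower at that threshold. Array weights gave the same counts. Over all probe sets, 3.05% had such a p with the 4-wk arrays alone and 7.47% with array weights. The brightest probe set stands for each gene in these counts. Slc7a2, the carrier of arginine and lysine, is named from another of its probe sets, which differed by 0.32 ± 0.09 at 4-wk and by 0.58 at 2-d. The 2-d difference passed adjustment (limma adjusted p = 0.0029).

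**Figure D3:**
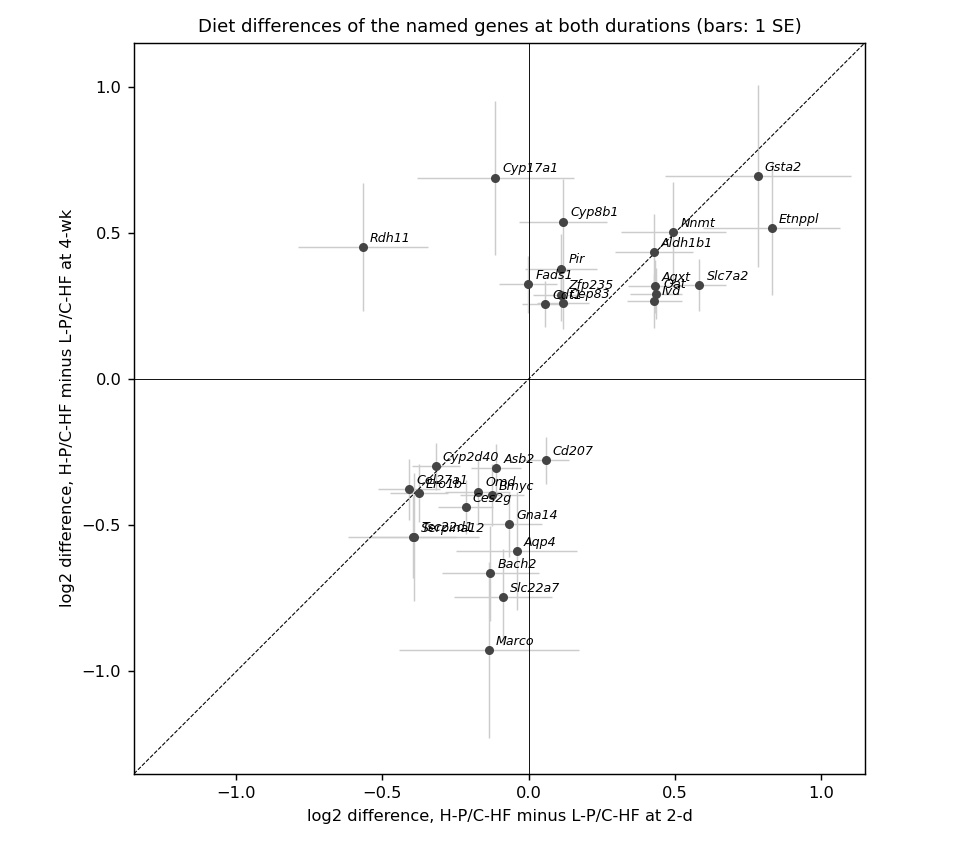
Log2 difference between the diets at 2-d (x axis) and at 4-wk (y axis) for each named gene, with 1 SE as bars and equality as a dashed line. Agxt, Oat, Ivd and Slc7a2 lie below the line on the upper right, Cyp8b1, Fads1 and Cyp17a1 lie near 0 at 2-d, and Rdh11 has opposite signs.

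Carbohydrate and lipid storage genes lay slightly lower. Of 17 glycolysis and carbohydrate response genes, 16 lay lower with a median of -0.05 (-0.09 without A24), and 2 had an unadjusted p under 0.05. Gpd2, the mitochondrial glycerol phosphate dehydrogenase, ran from 10.08 through 10.78 to 11.57 in L-P/C-HF and from 10.06 through 10.38 to 10.86 in H-P/C-HF, a difference of -0.34 ± 0.14 (unadjusted limma p = 0.0155). Khk, the fructokinase, differed by -0.15 ± 0.07, and the cytosolic Gpd1 by -0.19 (unadjusted limma p = 0.0538) against -0.42 at 2-d.

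Of 18 lipid droplet and fatty acid uptake genes, 15 lay lower with a median of -0.09. Plin2, the coat protein of hepatocyte lipid droplets, was at 13.44 ± 0.18 in L-P/C-HF and 13.27 ± 0.14 in H-P/C-HF, with 11 of 12 H-P/C-HF mice under the median of L-P/C-HF. It rose between 2-d and 4-wk in both diets, by 0.30 (limma adjusted p = 0.00493) and by 0.46 (limma adjusted p = 3.24e-05). Of 25 PPARA targets and genes of fatty acid oxidation, 21 lay lower with a median of -0.05, and 0 had an unadjusted p under 0.05 in either direction with limma. With array weights 7 had such a p, all lower, where 7.47% of all probe sets had one. Among 8 gluconeogenic genes, 3 lay higher and 5 lower, and Pcx (pyruvate carboxylase) was at -0.15 (unadjusted limma p = 0.0482, and 0.102 with arrays centred on their medians).

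Fads1 and Elovl2 lay higher in H-P/C-HF. Fads1, the delta-5 desaturase of polyunsaturated fatty acids, ran from 11.48 through 12.06 to 12.46 in L-P/C-HF and from 12.04 through 12.46 to 12.71 in H-P/C-HF, with 11 of 12 over the median of L-P/C-HF. The difference was 0.32 ± 0.10 (unadjusted limma p = 0.00179) and -0.002 at 2-d, and Fads1 rose in H-P/C-HF between 2-d and 4-wk by 0.42 (limma adjusted p = 0.00445), although its second probe set lay in the opposite direction. Elovl2, which elongates the same fatty acids, was at 0.23 (unadjusted limma p = 0.0237) and at 0.16 without A24 (unadjusted limma p = 0.0792). Over the 22 fatty acid synthesis genes 13 lay higher and 9 lower with a median of 0.03, and without A24 10 lay higher and 12 lower with a median of -0.01.

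Further metabolic genes had larger differences with wide spread. Cyp17a1, a steroid hydroxylase, was at 9.15 ± 0.63 in L-P/C-HF and 9.84 ± 0.45 in H-P/C-HF, a difference of 0.69 ± 0.26 (unadjusted limma p = 0.0117), and it rose in H-P/C-HF by 1.08 between 2-d and 4-wk (limma adjusted p = 0.00665). Rdh11, a retinol dehydrogenase, differed by 0.45 at 4-wk (unadjusted limma p = 0.044, 0.0674 without A15 and 0.118 without A24) and by -0.57 at 2-d, and it rose in H-P/C-HF by 1.03 (limma adjusted p = 0.00166). Gsta2, a glutathione transferase, ran from 7.11 through 9.01 to 9.97 in L-P/C-HF and from 8.14 through 9.59 to 10.89 in H-P/C-HF, a difference of 0.69 ± 0.31 (unadjusted limma p = 0.0303) and 0.78 at 2-d. Without A15 the 4-wk difference was 0.52 (unadjusted limma p = 0.0862). It was the only one of 19 glutathione transferases and NRF2 targets with an unadjusted p under 0.05, with 14 higher and 5 lower and a median of 0.05. Without A24, 11 lay higher and 8 lower with a median of 0.01.

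Nnmt, which methylates nicotinamide at the expense of S-adenosylmethionine, differed alike at both durations. It was at 11.01 ± 0.29 in L-P/C-HF and 11.51 ± 0.22 in H-P/C-HF, with all 12 H-P/C-HF mice over the median of L-P/C-HF and 8 above every L-P/C-HF mouse. The difference was 0.50 ± 0.17 (unadjusted limma p = 0.00579) and 0.50 at 2-d. The SD of Nnmt in L-P/C-HF at 2-d was 0.74, and this wider spread enters the SE at 4-wk. The mitochondrial aldehyde dehydrogenase Aldh1b1 was likewise at 0.43 at both durations. The other genes named as higher were Pir (0.38), Zfp235 (0.29, with its other probe set in the opposite direction), Cep83 (0.26) and Cdt1 (0.26), a licensing factor of DNA replication.

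Genes of protein folding in the endoplasmic reticulum lay lower by small amounts. Of 20 measured genes of the unfolded protein response, 19 lay lower with a median of -0.12, and 0 had an unadjusted p under 0.05 in either direction with limma. With array weights 11 had such a p, all lower, where 7.47% of all probe sets had one. By one-way ANOVA 2 had one, where 3.15% of all probe sets did. At 2-d, 18 of the 20 lay lower with a median of -0.15. Pdia4, a disulphide isomerase, was at 9.57 ± 0.20 and 9.38 ± 0.22 (-0.18, unadjusted limma p = 0.0808), the translocon subunit Sec61b at -0.16, the chaperone complex member Sdf2l1 at -0.29 and the co-chaperone Dnajc3 at -0.15. The list mean per mouse ran from 10.53 through 10.96 to 11.27 in L-P/C-HF and from 10.51 through 10.82 to 11.14 in H-P/C-HF, so that the groups overlapped over most of their range. Without A24, all 20 genes lay lower with a median of -0.17, and 2 had an unadjusted p under 0.05 (9 when A01 and A09 of the 2-d mice were also left out). Over all probe sets 2.57% and 3.06% had such a p in these settings. Without A15, 16 genes lay lower with a median of -0.10.

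A sequence feature that the array values did not use was looked for in the promoters of this group. The endoplasmic reticulum stress element, CCAAT and CCACG with 9 bases between them on either strand, was searched in the 250 bases before the start of each gene in RefSeq promoters of GRCm38.p6. It was found in 37 of 32851 windows (0.113%) and in 8 of the 17 list genes that had a window, namely Hspa5, Calr, Hsp90b1, Canx, Pdia6, Dnajc3, Creld2 and Syvn1. A match describes these letters and is not evidence of binding. The list was chosen as genes known for this response, so its share of matches was set by that choice and says nothing about the diets. Windows are shown with the matches in capitals, 5′ to 3′ on the gene's strand, because they hold the element of the best known chaperones and of the co-chaperone named above. They lie at chr2:34771840-34772089 (plus strand), chr10:86705445-86705694 (minus strand), chr12:17266339-17266588 (plus strand) and chr14:118937682-118937931 (plus strand), in the order of the lines.
Hspa5: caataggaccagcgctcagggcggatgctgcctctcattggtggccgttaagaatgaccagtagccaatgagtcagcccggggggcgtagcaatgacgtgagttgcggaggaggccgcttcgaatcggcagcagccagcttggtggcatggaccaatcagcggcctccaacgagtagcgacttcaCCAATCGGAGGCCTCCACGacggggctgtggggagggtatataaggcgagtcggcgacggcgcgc
Hsp90b1: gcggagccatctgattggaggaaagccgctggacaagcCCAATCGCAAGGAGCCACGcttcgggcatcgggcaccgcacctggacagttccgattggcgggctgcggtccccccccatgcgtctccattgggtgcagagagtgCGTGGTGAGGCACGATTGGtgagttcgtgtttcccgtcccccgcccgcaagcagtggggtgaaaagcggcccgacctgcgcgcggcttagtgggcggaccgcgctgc
Pdia6: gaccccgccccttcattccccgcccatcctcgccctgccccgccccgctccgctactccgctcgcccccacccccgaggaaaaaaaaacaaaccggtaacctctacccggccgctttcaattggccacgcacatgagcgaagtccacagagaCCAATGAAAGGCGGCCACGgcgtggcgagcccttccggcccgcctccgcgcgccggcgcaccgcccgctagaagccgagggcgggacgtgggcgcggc
Dnajc3: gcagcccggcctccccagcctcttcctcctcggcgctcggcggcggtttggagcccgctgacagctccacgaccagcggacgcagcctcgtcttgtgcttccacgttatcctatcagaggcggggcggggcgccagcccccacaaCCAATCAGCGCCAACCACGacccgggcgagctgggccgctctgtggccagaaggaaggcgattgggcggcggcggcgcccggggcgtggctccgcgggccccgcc

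The matches began 65 bases before the start in Hspa5, 98 in Pdia6 and 105 in Dnajc3, and Hsp90b1 held 2, at 212 and 107. Hspa5 (BiP, the main chaperone of this compartment) was at 12.03 ± 0.39 in L-P/C-HF and 11.90 ± 0.24 in H-P/C-HF, a difference of -0.13 ± 0.13. Pdia6 differed by -0.15 ± 0.10 and Hsp90b1 (GRP94) by -0.01 ± 0.11.

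**Figure D4:**
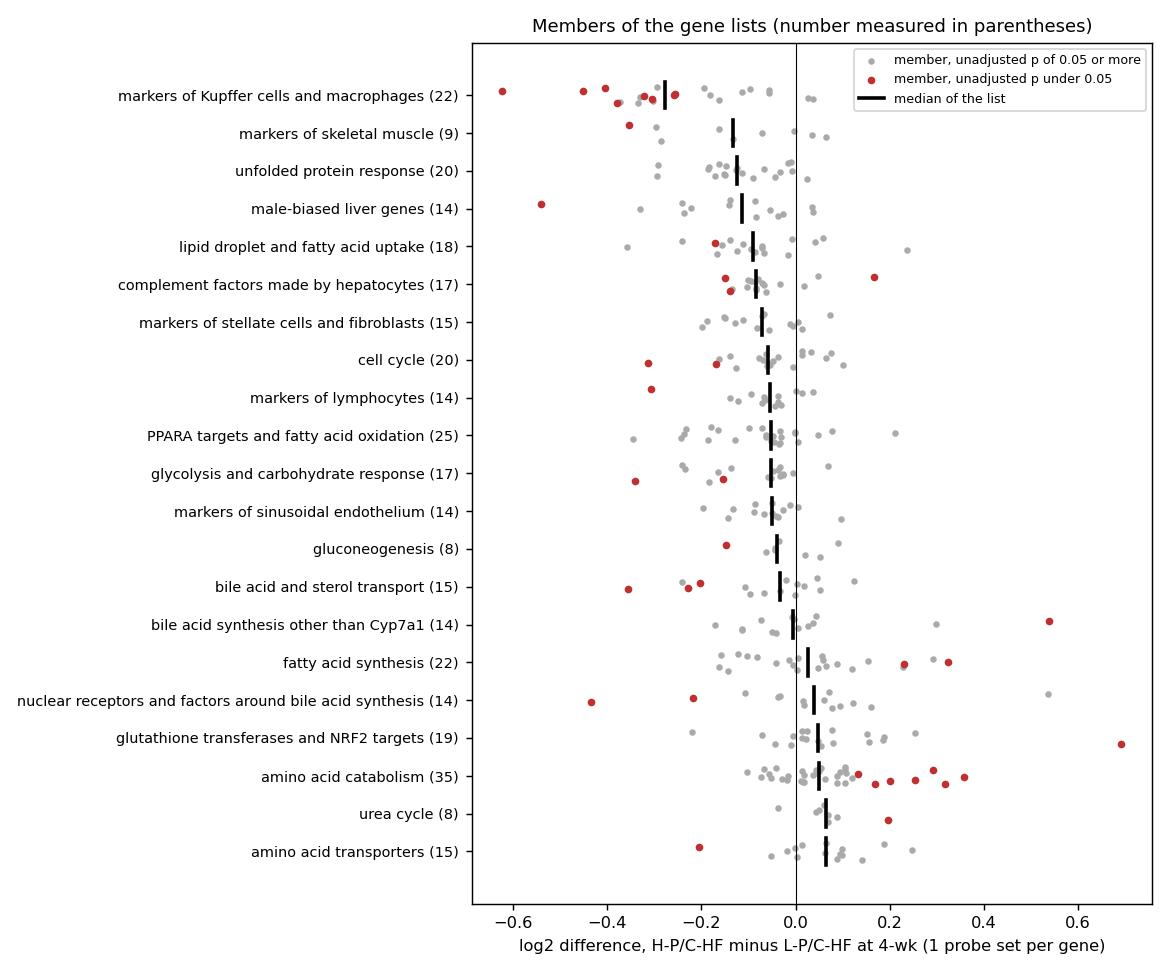
Log2 difference between the diets at 4-wk (x axis) for each measured member of the described gene lists (rows), with members at an unadjusted p under 0.05 in red and the list median as a black bar. The macrophage markers have the lowest median (-0.28), and the amino acid and urea cycle lists have medians between 0.05 and 0.07.

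Macrophage markers lay lower in H-P/C-HF against a background of a rise over time. Of 22 markers of Kupffer cells and macrophages, 20 lay lower at 4-wk with a median of -0.28, and 8 had an unadjusted p under 0.05, all lower. Adgre1 (F4/80) ran from 8.37 through 9.13 to 9.71 in L-P/C-HF and from 7.91 through 8.62 to 9.04 in H-P/C-HF, with all 12 H-P/C-HF mice under the median of L-P/C-HF and a difference of -0.38 ± 0.13 (unadjusted limma p = 0.00473). Lyz2 (lysozyme) ran from 9.69 through 10.84 to 11.29 and from 9.13 through 10.17 to 10.69, a difference of -0.45 ± 0.18, again with all 12 below. Cd14 was at -0.31, Timd4 at -0.41 and the brightest probe set of the scavenger receptor Marco at -0.62.

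These differences were set against larger changes with time. Between 2-d and 4-wk 16 of the 22 markers rose in L-P/C-HF and 11 in H-P/C-HF (against 4.76% and 4.16% of all genes that rose, and 1.25% and 1.87% that fell). The difference between the diet effects had an unadjusted limma p under 0.05 for 0 of the 22 markers, and 0 passed adjustment. At 2-d 19 of the 22 already lay lower in H-P/C-HF with a median of -0.10, 0 of them with an unadjusted limma p under 0.05. Lyz2 rose by 1.57 in L-P/C-HF and by 1.20 in H-P/C-HF (limma adjusted p = 2.33e-08 and 1.52e-05). The mean of the list per mouse was 8.18 ± 0.25 and 8.10 ± 0.19 at 2-d and 8.89 ± 0.32 and 8.65 ± 0.30 at 4-wk, with L-P/C-HF given first. Without A24, 20 markers still lay lower with a median of -0.27, and 6 had an unadjusted p under 0.05. An ordinary one-way ANOVA of the 4-wk mice gave 4 such markers, where 3.15% of all probe sets had such a p.

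Most endothelial and stellate cell markers rose with time in both diets. Of 14 sinusoidal endothelial markers, 12 rose in each diet between 2-d and 4-wk, Oit3 by 1.28 and 1.17. At 4-wk 12 lay lower in H-P/C-HF with a median of -0.05, and 0 had an unadjusted p under 0.05 in either direction. Of 15 stellate cell and fibroblast markers, 10 rose in L-P/C-HF and 9 in H-P/C-HF, and 12 lay lower at 4-wk with a median of -0.07. Of 14 lymphocyte markers 12 lay lower with a median of -0.05, Ptprc (CD45, carried by all leukocytes) at -0.31 with an unadjusted limma p of 0.0404. Without A24, 9 lay lower and 5 higher with a median of -0.02, and Ptprc was at -0.25 (unadjusted limma p = 0.0889). What part these cells took in the gene differences above was not tested.

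**Figure D5:**
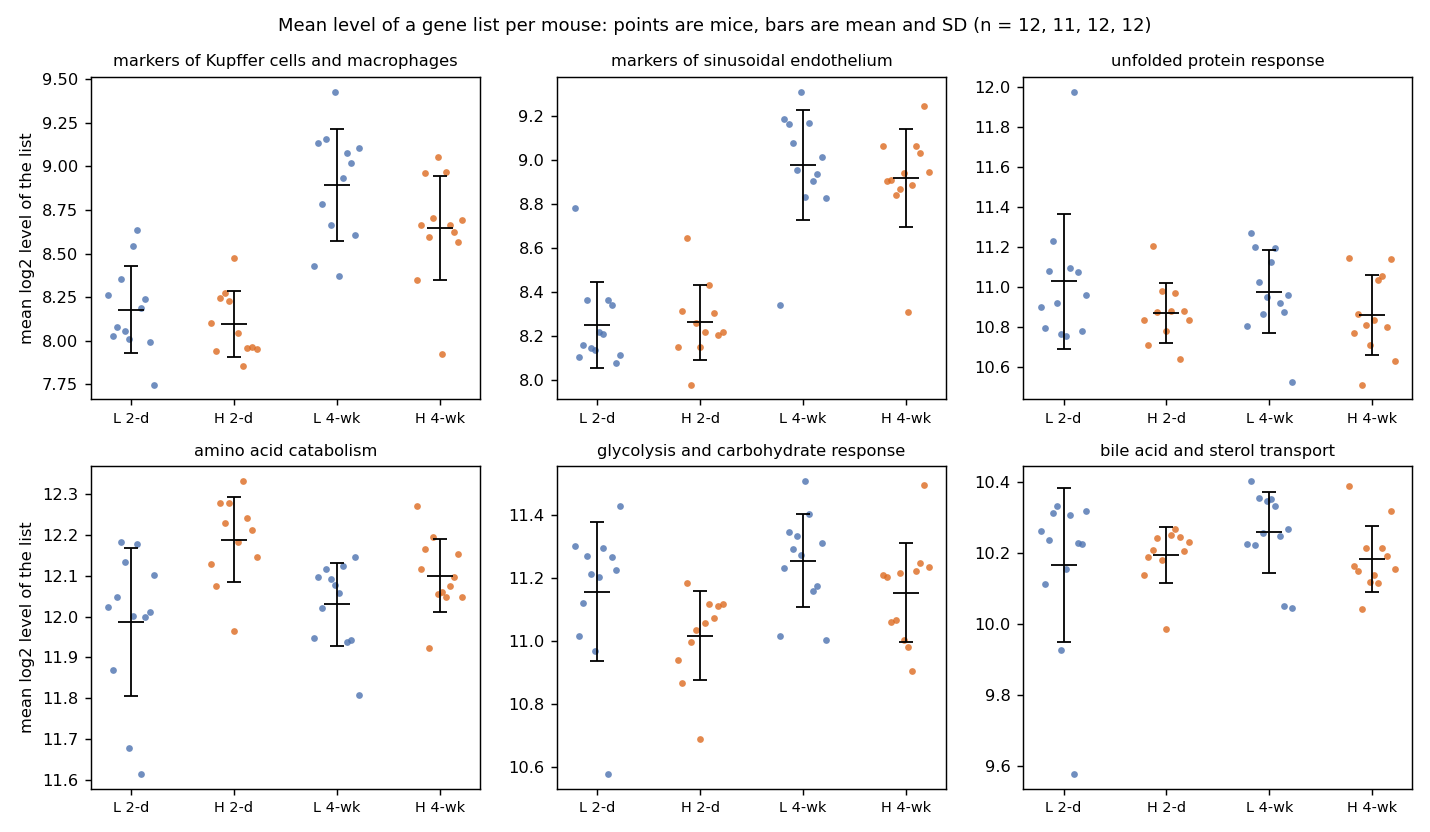
Mean log2 level of 6 gene lists in every mouse (points) of the 4 groups, with mean and SD as bars. Macrophage and endothelial means lay higher at 4-wk than at 2-d in both diets, and in each panel the 4-wk groups overlapped.

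The male-biased and muscle lists depended on A15. Of 14 male-biased liver genes, 12 lay lower with a median of -0.11, and without A15 9 lay lower with a median of -0.02, with Serpina12 the 1 gene at an unadjusted p under 0.05 either way. The 9 skeletal muscle markers had a median of -0.13, and without A15 it was -0.01. Among 17 complement factors 14 lay lower with a median of -0.08, with the lectins that start the pathway on both sides, Mbl2 higher by 0.17 (unadjusted limma p = 0.0114) and Mbl1 lower at -0.15 (unadjusted limma p = 0.0424, and 0.0995 without A15). Of 20 cell cycle genes 14 lay lower with a median of -0.06, and Ccnd1 (cyclin D1) differed by -0.31 ± 0.12 and Ccnb2 (cyclin B2) by -0.17 ± 0.08. Without A24 the median was -0.03, and Ccnb2 was at -0.14 (unadjusted limma p = 0.0735).

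The diet difference at 4-wk was also compared with that at 2-d for each probe set. With limma, 0 of 45037 (0%) passed the adjusted p of 0.05 for the difference between the 2 diet effects, and 733 (1.63%) had an unadjusted p under 0.05.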

How the data were processed

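Liver RNA of 48 mice was hybridised by the authors to Affymetrix mouse arrays from 5 ug of total RNA. The deposited values are log2 levels per probe set made by the authors with RMA, which corrects background, normalizes between arrays and summarises probes. No probe signals were used, and log base 2 was inferred from how far the levels range. The number of mice limits the precision.

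Of 45101 probe sets, 64 controls were left out. A model with 1 mean per group was fitted to 47 arrays by limma 3.58.1 in R 4.3.3 (lmFit, eBayes with a trend), two-sided, with Benjamini-Hochberg adjustment over 45037 probe sets. B25 was left out as in the methods. Symbols came from the platform annotation: 34945 probe sets had 1 symbol, 932 several and 9160 none, and 730 of 799 list memberships were matched. The lists and their members were chosen with earlier results of these data known. Named were, among probe sets above the median level and outside sterol synthesis and Cyp7a1, the 12 genes of smallest p and the 6 of largest difference with an unadjusted p under 0.05 in each direction, up to 4 members of smallest p in each described list, other members at an unadjusted p under 0.05 and defining markers. Hspa5, Hsp90b1 and Pdia6 were named after their values were seen, for their promoters. Scripts were tested on simulated shifts, where 57 of 100 probe sets shifted by 0.3 log2 and 91 of 100 shifted by 0.5 passed adjustment. Alternatives were B25 included, A24 or A01, A09 and A24 left out, the 4-wk arrays alone, eBayes without a trend, array weights, median centring, cyclic loess, the brighter probe sets, an RNA quality covariate, a replicate block, an ordinary one-way ANOVA without the Global Error Assessment of the methods and, for lists, the mean of all probe sets. Leaving out A15 was added after seeing the data. Figures were drawn with matplotlib 3.10.9.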

Additional observations from a re-analysis of the deposited data

How the results depend on the processing

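Across 13 alternatives the 31 named probe sets kept their direction in each. They had been chosen for a small p or a large difference on largely the same arrays, so a kept direction follows mostly from that choice. The count at an adjusted p under 0.05, which was 0 in limma as reported, became 10 with array weights (Ces2g, Slc22a7, Gna14, Bach2, Ero1b and Bmyc among the named genes), 1 with cyclic loess (Ces2g, adjusted p = 0.0112) and 2 with the replicate block (Slc22a7, adjusted p = 0.0455, and Tm7sf2), and stayed 0 in the others. Over the alternatives the adjusted p of Ces2g ran from 0.00613 to 0.819 and that of Slc22a7 from 0.0238 to 1. The count at an unadjusted p under 0.001 was 27 as reported, 41 without A01, A09 and A24, 147 with array weights and 47 with cyclic loess. The count at an unadjusted p under 0.05 was 1243 as reported, 3365 with array weights and 553 of 22518 among the brighter probe sets, where fewer were tested. Of probe sets at an unadjusted p under 0.001, 29.6% lay higher as reported, 41.7% with median centring and 48.9% with cyclic loess. The cause of these changes was not tested, apart from the smaller number tested. The replicate numbers shared by the groups did not pair the mice: same-numbered mice of the 4-wk groups correlated between -0.28 and 0.21 after group means were removed (median -0.03), over 0.1 in 2 of 12 pairs. The difference between the diet effects gave 0 adjusted calls in every setting in which it was fitted.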

Other observations

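Of 24 proteasome subunits, 10 lay higher and 14 lower in H-P/C-HF at 4-wk with a median of -0.01, and without A24 22 lay lower with a median of -0.04. Of 25 respiratory chain subunits, 17 lay higher with a median of 0.01, against 24 higher with a median of 0.10 at 2-d, and without A24 9 lay higher and 16 lower with a median of -0.01. Of 19 circadian clock genes, 8 lay higher and 11 lower with a median of -0.01, and of 21 interferon-stimulated genes 14 lay higher with a median of 0.03. Of 24 acute phase genes, 18 lay lower with a median of -0.09, and 0 had an unadjusted p under 0.05 in either direction with limma over the 4 groups. With limma on the 24 arrays of 4-wk alone 6 had such a p and by one-way ANOVA 5, all lower. Over all probe sets the shares were 3.05% and 3.15%.

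Immediate early genes fell with time in both diets. Of 17 measured, 10 fell between 2-d and 4-wk in L-P/C-HF and 9 in H-P/C-HF, where 1.25% and 1.87% of all genes fell. Their median changes were -0.55 and -0.56, and their median diet difference at 4-wk was -0.07 (-0.11 without A24). Lysosomal genes went the other way, with 11 of 20 rising in L-P/C-HF and 10 in H-P/C-HF, where 4.76% and 4.16% of all genes rose.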
